A study of Homo sapiens with 4 samples.

Results

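The genes of the human beta-globin locus on chromosome 11 were HBE1, HBG1, HBG2, HBBP1, HBD and HBB, and the olfactory receptor genes OR51B4 and OR51B5 lie beside them. These 8 genes, of 64252 gene identifiers counted, were chosen by their place in the locus and with their counts in the same comparison of dBET1 with DMSO already known, so their differences are given as a description without a test. Of the 8 genes, 7 passed the filter on low counts and HBB did not.

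RNA was sequenced from cells labelled NB4, an acute promyelocytic leukemia line that carries the PML-RARA fusion. Both dBET1 libraries came from cells kept for 24 h in 8 μM dBET1, a degrader that recruits the E3 ligase adaptor CRBN to BET bromodomain proteins, and both DMSO libraries from cells kept for 24 h in the same volume of the solvent alone. The comparison asked which transcripts differed after the BET proteins had been targeted for degradation. It rests on 1 cell line and 2 libraries in each group, the labels do not say whether the libraries of a group came from separate cultures, and p-values then measure the spread between these libraries, which may be technical.

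The libraries held from 28019956 to 34685645 counts. Defining markers of the labelled cell type were in part absent. Of 11 promyelocytic and granulocytic markers, ELANE, CTSG and RNASE2 had 0 counts in all 4 libraries and MPO had 0 counts in both DMSO libraries and 22 and 10 counts in the dBET1 pair. Other members of the list were detected, SPI1 at 28.2 CPM (counts relative to the normalized library size), LYZ at 17.9 CPM, CD33 at 10.9 CPM and CSF3R at 2.02 CPM as means of the DMSO libraries. The rest were close to absent by the same measure, CEBPE at 0.854 CPM, AZU1 at 0.464 CPM and PRTN3 at 0.0638 CPM. PRTN3 did not pass the filter. Summed over the list, these markers reached 59.5 and 61.4 CPM with DMSO and 46.8 and 48.4 CPM with dBET1. Erythroid markers were far more abundant, at 3224 and 2999 CPM in the DMSO pair and 1788 and 1832 CPM in the dBET1 pair for the 11 genes together, most of it TFRC, the transferrin receptor of dividing cells in general. Among the tested erythroid markers KLF1, GYPB and HEMGN were lower and SLC4A1 was higher past both thresholds (adjusted p under 0.05 by edgeR and a log2 fold change beyond 1 in either direction), and AHSP, which did not pass the filter, had 6, 6, 0 and 2 counts. The summed level of 6 megakaryocyte markers was 3.68 and 4.38 CPM with DMSO and 7.33 and 8.78 CPM with dBET1, with PF4 and PPBP at 0 counts throughout. For 5 lymphoid markers, most of it CD3D, the sum was 29.9 and 33.9 CPM against 12.9 and 13.1 CPM, with MS4A1 at 0 counts. For 5 monocyte markers, most of it CD68, the sum was 17.3 and 23.3 CPM against 7.53 and 10.3 CPM. CD68 was lower past both thresholds (log2 -1.46), but CD14 (log2 1.23) and CSF1R (log2 2.01) were higher past both. CD14 held 18 and 14 counts with DMSO and 27 and 48 with dBET1, and CSF1R 3 and 4 against 17 and 12. The summed level of the erythroid markers was lower with dBET1, as were the globin genes described here, but SLC4A1 rose and TAL1 had a log2 fold change of 0.18. The part of these markers in the globin values was not tested, and in bulk RNA fewer cells of a type and less RNA per cell cannot be told apart.

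Hemoglobin pairs alpha-like with beta-like globin chains. The beta-like genes stand in the order of their use in development, from the embryonic gene HBE1 through the fetal genes HBG2 and HBG1 to the minor and major adult genes HBD and HBB, and a distant enhancer cluster, the locus control region, contacts them in turn with the help of erythroid transcription factors. The olfactory receptor genes on either side encode odorant receptors of sensory neurons.

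In the annotation of hg38 all 8 genes are on the minus strand of chromosome 11. HBB spans positions 5225464 to 5229395, HBD 5232678 to 5243657, the pseudogene HBBP1 5242120 to 5243537 and HBG1 5248269 to 5249857. The main transcript of HBG2 runs from 5253188 to 5254781 and that of HBE1 from 5268345 to 5269945, but the gene models of both reach on past OR51B4, which is at 5301014 to 5301946, up to 5505605 and 5505652. OR51B5 spans 5303444 to 5505652. Transcripts over 50 kb long make up 2 of the 3 annotated for HBE1, 1 of the 3 for HBG2 and 4 of the 5 for OR51B5, and exons of these genes share 37 bases between HBE1 and HBG2, 84 between HBE1 and OR51B5 and 37 between HBG2 and OR51B5. HBBP1 lies within the gene model of HBD and shares 88 exonic bases with it. Reads from shared bases can be counted for either gene, and because the strand setting of the counting was not stated, antisense reads cannot be told apart.

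Sequence identity limits the same counts. The main transcripts of HBG1 and HBG2, 587 and 586 bases long, were identical at 582 of 587 aligned columns (99.1%), with an unbroken identical run of 279 bases, so their separate counts are uncertain and their sum is also given. HBD and HBB were 85.4% identical with a longest run of 56 bases, HBE1 and HBG2 73.7%, and OR51B4 and OR51B5 69.9% with a longest run of 19 bases.

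The HBD promoter is shown because HBD is among the genes with the largest difference between the groups. Of the 8 genes, 1 was matched in the RefSeq promoter sequences of GRCh38.p14, and the others, HBE1, HBG1, HBG2, HBBP1, HBB, OR51B4 and OR51B5, are named only. The 250 bases before the HBD start (chr11:5234484-5234733, minus strand, 5′ to 3′) are printed in lower case, with capitals where GATA, CCAAT or CATAAA was found on either strand.
HBD promoter: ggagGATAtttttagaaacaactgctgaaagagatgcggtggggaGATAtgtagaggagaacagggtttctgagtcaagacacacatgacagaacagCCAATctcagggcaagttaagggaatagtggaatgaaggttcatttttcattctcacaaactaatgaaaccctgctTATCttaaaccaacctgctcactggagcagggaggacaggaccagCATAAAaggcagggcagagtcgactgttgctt
Positions are counted back from the start of transcription. GATA, the core of the motif bound by GATA factors, stands at bases -246 to -243 and -205 to -202, and once on the opposite strand at -77 to -74, where it reads TATC. CCAAT, bound by the NF-Y complex, stands at -153 to -149, and CATAAA at -32 to -27. Also searched on both strands and not found were CACCC, the core of the motif bound by KLF factors, then TGACCA, a motif bound by the gamma silencer BCL11A, and last the TATA box in its form TATAAA. None of the hits overlapped. Of 35116 RefSeq promoter windows of this length, 45.6% hold GATA, 32.0% hold CCAAT and 9.64% hold CATAAA. The share that holds CACCC is 54.7%, the share that holds TGACCA is 9.19% and the share that holds TATAAA is 10.7%. CATAAA was added to the search after the sequence had been read, and a match is a description of the letters, not of binding.

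The embryonic gene HBE1 encodes the epsilon chain. It held 26025 and 27441 counts in the DMSO pair and 16656 and 15912 in the dBET1 pair. Both DMSO values lay above both dBET1 values in CPM, as they did for 37.4% of all tested genes. The mean level was 887 ± 127 CPM (SD, n = 2) with DMSO and 538 ± 23.8 CPM (SD, n = 2) with dBET1, a log2 difference of -0.72 (SE 0.102).

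HBG2 and HBG1 encode the gamma chains of fetal hemoglobin. HBG2 held 80407 and 83875 counts with DMSO and 51641 and 53799 after dBET1. HBG1 held 23826 and 26828 counts with DMSO and 16629 and 15502 after dBET1. For both genes the groups did not overlap, and DMSO replicate 2 was the highest library in CPM. HBG2 averaged 2724 ± 368 CPM (SD, n = 2) with DMSO and 1741 ± 29.5 CPM with dBET1, a log2 difference of -0.65 (SE 0.0951). HBG1 averaged 842 ± 159 CPM and 531 ± 32.7 CPM (SD, n = 2), a log2 difference of -0.67 (SE 0.123). Summed over both copies, to which reads shared between them belong in either case, the level was 3567 ± 527 CPM against 2272 ± 3.22 CPM (SD, n = 2), with a log2 difference of -0.65 (SE 0.0994). The spread between the DMSO libraries was wider than that between the dBET1 libraries, and without DMSO replicate 1 the log2 differences were -0.89 for HBE1, -0.87 for HBG1 and -0.80 for HBG2. Without DMSO replicate 2 they were -0.60, -0.49 and -0.53 in the same order.

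HBD encodes the delta chain of the minor adult hemoglobin, and HBBP1 is a transcribed pseudogene between the fetal and the adult genes. HBBP1 held 793 and 583 counts in the DMSO pair and 72 and 86 in the dBET1 pair. HBD held 144 and 117 counts with DMSO and 26 and 38 after dBET1. Both genes were well apart between the groups, with no overlap. HBBP1 averaged 22.5 ± 2.51 CPM (SD, n = 2) with DMSO and 2.61 ± 0.296 CPM with dBET1, and its log2 difference of -3.11 (SE 0.182) was the largest of the 7 tested genes. HBD averaged 4.29 ± 0.176 CPM and 1.06 ± 0.268 CPM (SD, n = 2), a log2 difference of -2.02 (SE 0.293).

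HBB, which encodes the beta chain of adult hemoglobin, had few counts in any library. There were 6 counts in DMSO replicate 1, 0 in DMSO replicate 2, 10 in dBET1 replicate 1 and 0 in dBET1 replicate 2. In CPM these values were 0.184, 0, 0.333 and 0. A count of 0 allows up to 3 counts, which is 0.107 CPM in DMSO replicate 2 and 0.0983 CPM in dBET1 replicate 2, so each group held 1 library above this floor and 1 at 0. A difference between the groups was not detectable at this depth, and the few HBB counts may include reads shared with HBD.

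OR51B4 and OR51B5, which encode odorant receptors, lie on the side of HBE1. OR51B4 held 790 and 475 counts with DMSO and 293 and 329 after dBET1. OR51B5 held 717 and 513 counts with DMSO and 293 and 286 after dBET1. Neither gene's groups overlapped, and DMSO replicate 1 was the highest library for both. OR51B4 averaged 20.6 ± 5.17 CPM (SD, n = 2) and 10.3 ± 0.718 CPM, a log2 difference of -1.002 (SE 0.192) that ranged from -1.27 to -0.75 when libraries were left out in turn. OR51B5 averaged 20.1 ± 2.63 CPM and 9.57 ± 0.278 CPM (SD, n = 2), a log2 difference of -1.07 (SE 0.152).

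**Figure D1:**
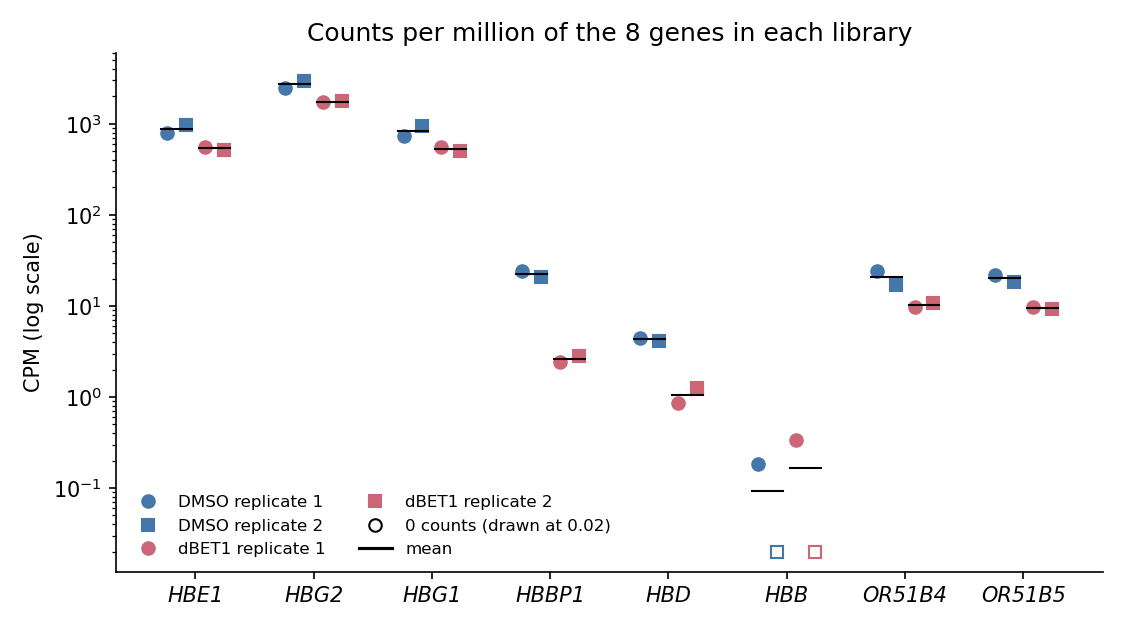
CPM of the 8 genes on a log scale in each of the 4 libraries (circles replicate 1, squares replicate 2, blue DMSO, red dBET1, black line the group mean). The DMSO libraries lie above the dBET1 libraries for 7 genes, as they do for 37.4% of all tested genes, and HBB has 0 counts in 1 library of each group, drawn as an open symbol at a fixed low height.

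Levels were compared between genes as CPM per kb of the main transcript. With DMSO the order was HBG2 at 4649 ± 628, HBG1 at 1435 ± 270, HBE1 at 1424 ± 203, HBBP1 at 51.3 ± 5.73, OR51B4 at 22.0 ± 5.54, OR51B5 at 21.4 ± 2.80, HBD at 6.92 ± 0.285 and HBB at 0.146 ± 0.207 (SD, n = 2). HBG1 and HBE1, and likewise OR51B4 and OR51B5, differed by less than their spread. With dBET1 the order was HBG2 at 2972 ± 50.3, HBG1 at 904 ± 55.7, HBE1 at 864 ± 38.3, OR51B4 at 11.01 ± 0.769, OR51B5 at 10.2 ± 0.297, HBBP1 at 5.94 ± 0.674, HBD at 1.70 ± 0.432 and HBB at 0.265 ± 0.375 (SD, n = 2). The globin genes expressed at the embryonic and fetal stages were at the top in both groups. On this scale HBBP1 was above the olfactory receptor genes with DMSO and below them with dBET1. The place of OR51B5 in both orders depends on the length used, since its main transcript has 939 bases but its annotated exons together cover 3965. HBG1 and HBE1 again differed by less than the spread, and OR51B4 and OR51B5 differed by about their spread.

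Past both thresholds 4 of the 7 tested genes were lower, namely HBBP1, HBD, OR51B5 and OR51B4, and 0 were higher, with 0 higher at an unadjusted p under 0.05 and 0 by DESeq2, beside 8.54% lower and 16.9% higher of all 17971 tested genes. At an adjusted p alone all 7 were lower, beside 27.6% lower and 28.0% higher of all tested genes. The genes were chosen with this contrast known, so nothing is read from these shares. OR51B4 was just inside the fold limit, and outside it at -0.98 with the replicate number as a block, and HBE1, at -0.72, was the nearest outside it. Without DMSO replicate 1 the count of lower genes was 2, and with total counts as the only scaling it was also 2. The log2 differences of HBE1, HBG1 and HBG2 were -0.51, -0.45 and -0.43 on that scale, on which the median over the tested genes was 0.26 instead of 0.05 and 80.2% instead of 66.4% of the genes past both thresholds were higher.

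The 7 genes cover several levels of abundance, and fold changes differed with abundance in these libraries. HBE1, HBG1 and HBG2 belong to group 10, the most abundant of 10 equal groups of tested genes by mean log2 CPM. In it the median log2 difference was -0.41, the quartiles were -0.82 and -0.0067, and 16.6% of genes were lower past both thresholds. OR51B4 and OR51B5 are in group 6, with a median of -0.0045 and a first quartile of -0.46. HBBP1 is in group 5, with a median of 0.15 and a first quartile of -0.42, and HBD in group 4, with a median of 0.30 and a first quartile of -0.35. HBE1, HBG1 and HBG2 therefore lay between the quartiles of genes as abundant as they are, whereas HBBP1, HBD, OR51B4 and OR51B5 lay below the first quartile of theirs.

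**Figure D2:**
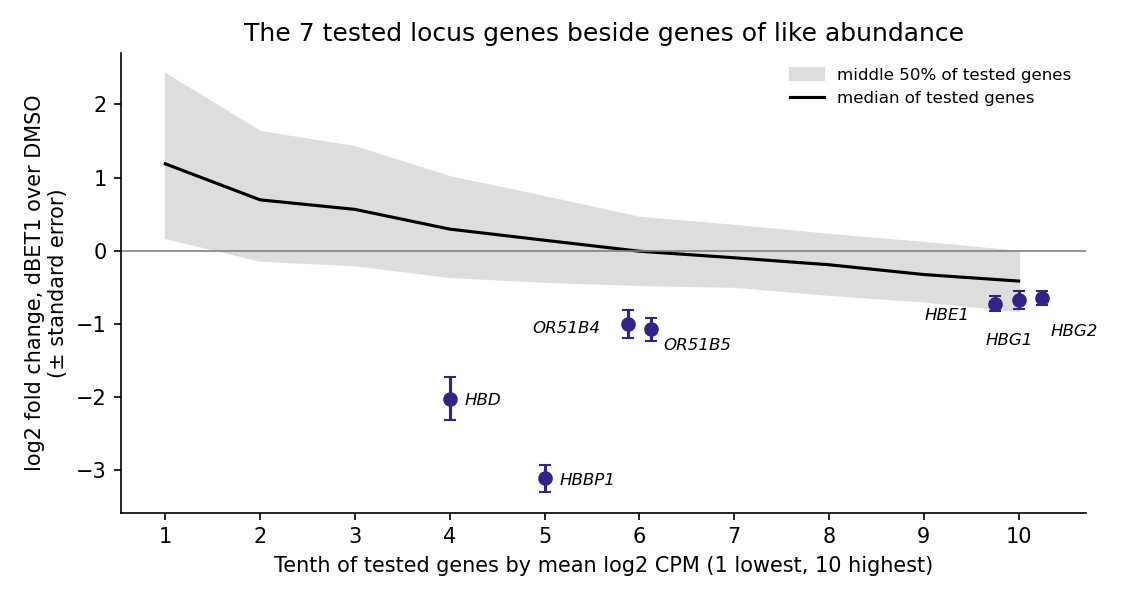
Log2 difference, dBET1 over DMSO, of the 7 tested genes (points, ± SE) at their abundance group (1 lowest, 10 highest), over the median (line) and the range between the quartiles (grey) of all tested genes of that group. HBE1, HBG1 and HBG2 at -0.72, -0.67 and -0.65 lie inside the grey band, and the other 4 genes lie below it.

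Shares within a library do not depend on the scaling between libraries. The gamma genes HBG1 and HBG2 together made up 79.4% (95% Wilson interval 79.2 to 79.7) and 79.7% (79.5 to 79.9) of the beta-like globin counts (HBE1, HBG2, HBG1, HBBP1, HBD and HBB) in the DMSO pair, and 80.3% (80.0 to 80.6) and 81.2% (80.9 to 81.5) in the dBET1 pair. The intervals cover counting error only. The mean share was 79.6 ± 0.203% with DMSO and 80.7 ± 0.653% with dBET1 (SD, n = 2), so the gamma share was higher in both dBET1 libraries by little more than the spread between them. HBE1 made up 19.8 ± 0.0510% and 19.1 ± 0.666% (SD, n = 2). HBBP1 went from 0.512 ± 0.130% to 0.0927 ± 0.0114% and HBD from 0.0970 ± 0.0180% to 0.0376 ± 0.00987% (SD, n = 2). No test was made of these shares, since 2 libraries against 2 cannot go below 0.333 in a two-sided exact permutation test.

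Ratios of counts were taken between neighbours within each library. HBG2 held 3.37 and 3.13 counts for each count of HBG1 with DMSO and 3.11 and 3.47 after dBET1, and the groups overlapped. HBBP1 held 33.3 and 21.7 counts per 1000 counts of HBG1 with DMSO and 4.33 and 5.55 after dBET1. For HBD the values were 6.04 and 4.36 against 1.56 and 2.45. HBBP1 and HBD were thus lower relative to HBG1 in both dBET1 libraries. OR51B4 held 30.4 and 17.3 counts per 1000 counts of HBE1 with DMSO and 17.6 and 20.7 after dBET1, and these groups overlapped.

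The alpha-like genes encode the partner chains. Over HBZ, HBM, HBA2, HBA1 and HBQ1 the ratio of summed alpha-like to summed beta-like counts was 0.448 and 0.440 in the DMSO pair and 0.233 and 0.218 in the dBET1 pair. Both dBET1 values were well below both DMSO values, with means of 0.226 ± 0.0109 and 0.444 ± 0.00568 (SD, n = 2). Divided by exon length the ratios were 0.436 and 0.430 with DMSO and 0.231 and 0.215 after dBET1. The beta-like sum was 0.628 times its DMSO level and the alpha-like sum 0.320 times.

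**Figure D3:**
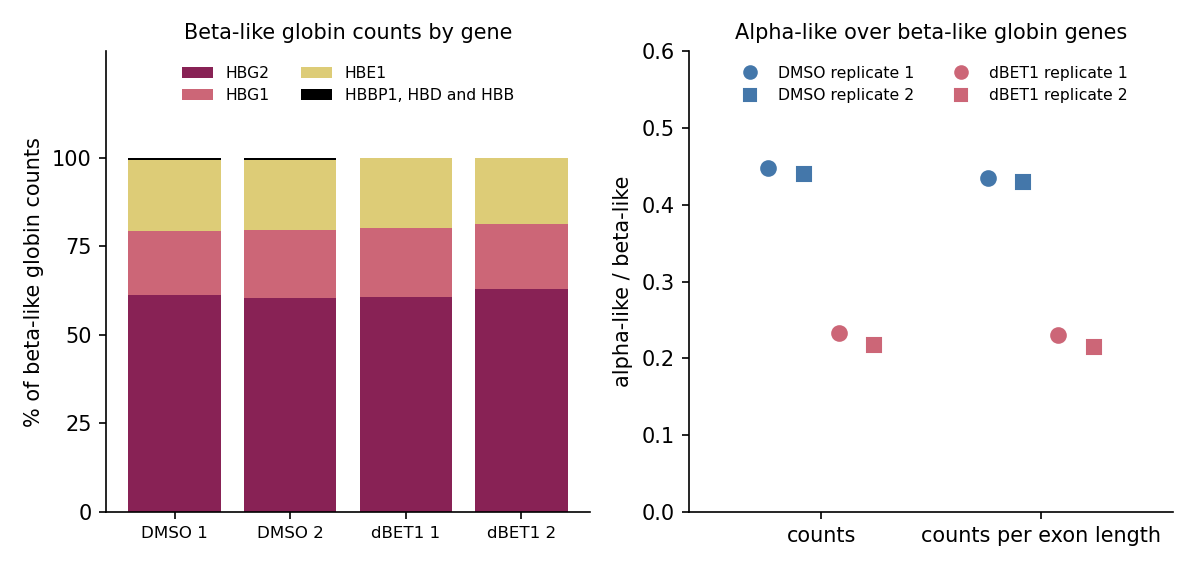
Left, share of each gene in the beta-like globin counts of each library in percent. Right, ratio of summed alpha-like to beta-like counts, as counted and per exon length, where both DMSO libraries lie at 0.430 to 0.448 and both dBET1 libraries at 0.215 to 0.233.

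These alpha-like genes were not picked by the rule for the locus and were tested. This list and the lists of regulators below were still chosen with earlier results of these data known, so their adjusted p-values are descriptive. Of the 5 that passed the filter 4 fell past both thresholds (80%, beside 8.54% of all tested genes) and 1 rose (20%, beside 16.9%). HBZ, the embryonic zeta chain, fell from 366 ± 24.1 to 90.4 ± 0.899 CPM (SD, n = 2), with a log2 fold change of -2.02 (SE 0.0793, edgeR adjusted p 4.89e-06). The adult alpha genes HBA2 and HBA1, near-identical copies that can share reads, fell by 1.62 (edgeR adjusted p 1.62e-05) and 1.54 (edgeR adjusted p 4.37e-05) on the log2 scale. HBQ1, the theta gene, fell by 1.23 on that scale (edgeR adjusted p 0.000833). The median of the 5 was -1.54, beside 0.05 over all tested genes. HBM, the mu gene, had 0 and 3 counts with DMSO and 11 and 16 after dBET1, at least 4.48-fold higher against a floor of 3 counts per library (edgeR adjusted p 0.0250). HBM passed the filter through the dBET1 libraries alone. The HBM call was lost with DESeq2, with counts divided by 2, with other count filters and without DMSO replicate 1, dBET1 replicate 1 or dBET1 replicate 2. AHSP, the alpha-chain chaperone, did not pass the filter. Within the alpha-like genes the ratio of HBZ to HBA1 and HBA2 was 0.230 ± 0.0189 with DMSO and 0.169 ± 0.00926 with dBET1 (SD, n = 2).

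Genes around the locus were examined for whether the difference went beyond it. Within 500 kb of the outermost of the 8 genes the annotation has 90 other genes, of which 62 had 0 counts in all libraries and 11 were tested. Of these 11, 6 were lower (54.5%, beside 8.54% of all tested genes) and 1 was higher (9.09%, beside 16.9%) past both thresholds. Nothing is read from the share of lower genes, because several of them passed the filter through the DMSO libraries alone. BGLT3, a long noncoding RNA between HBBP1 and HBG1, held 122 and 143 counts with DMSO and 55 and 57 after dBET1 and fell by 1.25 on the log2 scale (SE 0.271, edgeR adjusted p 0.00557). The olfactory receptor gene OR51I2 held 65 and 28 counts against 4 and 4 and fell by 3.47 (SE 0.565, edgeR adjusted p 0.00146). OR51K1P, a receptor pseudogene, held 28 and 14 against 2 and 3, and OR51I1 15 and 25 against 4 and 2. OR52D1 held 55 and 67 counts with DMSO and 21 and 16 after dBET1. These 3 fell, with log2 fold changes of -2.99, -2.70 and -1.72 in that order, and all had few counts. TRIM6-TRIM34, a read-through of 2 neighbouring genes, had 16 and 15 counts with DMSO and 0 and 0 after dBET1, at least 5.17-fold lower against a floor of 3 counts per library (edgeR adjusted p 0.00254), while TRIM34 had 10 and 0 against 78 and 96 and was higher (log2 4.11, edgeR adjusted p 0.00220), a call lost with DESeq2. TRIM6, TRIM6-TRIM34 and TRIM34 share exons, and their summed level was 20.1 and 15.4 CPM with DMSO and 18.2 and 19.2 CPM with dBET1. OR51I2, OR51K1P, OR51I1 and TRIM6-TRIM34 passed the filter through the DMSO libraries alone, and TRIM34 through the dBET1 libraries alone. The direction of these genes was thus in part set by the filter.

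Of the 90 genes, 16 start inside the annotated span of the 8 genes. Among them 6 were tested and 5 were lower (83.3%, beside 8.54% of all tested genes). Among the 74 that start outside 5 were tested, 1 lower (20%, beside 8.54%) and 1 higher (20%, beside 16.9%). Of the lower genes inside, OR51I2, OR51K1P and OR51I1 passed the filter through the DMSO libraries alone. The nearest tested genes outside were TRIM6, 90.5 kb beyond OR51B5, with a log2 fold change of -0.11 (edgeR adjusted p 0.578), and TRIM6-TRIM34. On the HBB side they were TRIM68, 617 kb away, higher by 0.91 (edgeR adjusted p 0.00178), and TRIM21, 832 kb away, higher by 1.12 (edgeR adjusted p 0.000891). By position OR51I2, OR51K1P, OR51I1 and OR52D1 lay inside the long gene models of HBE1, HBG2 and OR51B5. BGLT3 lay between HBBP1 and HBG1, and TRIM6-TRIM34 lay outside. Nothing is read from these positions, because the filter in part set which genes were tested and their direction. With at least 10 counts required in every library 2 of the genes around the locus were lower.

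**Figure D4:**
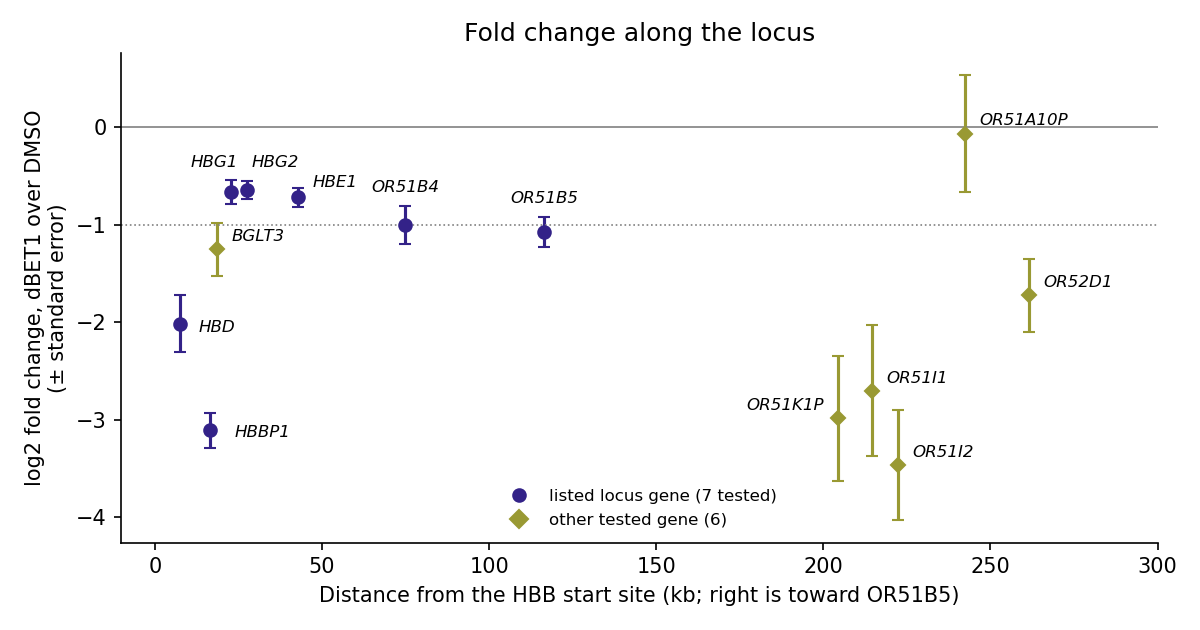
Log2 difference, dBET1 over DMSO (± SE), against distance in kb from the HBB start, for the 7 tested genes (dark circles) and 6 other tested genes (olive diamonds). HBBP1 at -3.11 and HBD at -2.02 lie lowest among the circles, while HBG1, HBG2 and HBE1 lie between -0.72 and -0.65. OR51A10P, at -0.07, is the diamond that did not pass the thresholds.

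OR51B4 and OR51B5 were set beside the other olfactory receptor genes of the genome. Of 393 such genes 332 had 0 counts in all libraries and 12 were tested. The number with any count was 30 and 29 with DMSO and 40 and 43 after dBET1. Their summed counts were 610 and 480 with DMSO and 566 and 585 after dBET1. OR51B4 and OR51B5 together held 1507 and 988 counts with DMSO and 586 and 615 after dBET1, in each library more than the 393 others together. Past both thresholds 3 genes fell (25%, beside 8.54% of all tested genes), OR51I1, OR51I2 and OR52D1. OR51I1 and OR51I2 passed the filter through the DMSO libraries alone. Those that rose were 2 (16.7%, beside 16.9% of all tested genes), OR2B6 and OR10AD1. Among the 354 outside the 500 kb window 9 were tested, and 0 fell and 2 rose (22.2%, beside 16.9%) by edgeR. There were 3 lower at an unadjusted p under 0.05 and 0 lower by DESeq2. OR2B6 went from 3.32 ± 0.512 to 7.78 ± 0.164 CPM (SD, n = 2; log2 1.23, edgeR adjusted p 0.00201). OR2W3 went from 3.86 ± 0.0814 to 1.96 ± 0.514 CPM (SD, n = 2; log2 -0.98, edgeR adjusted p 0.0191).

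Factors that act on the locus were listed by role. Of 20 activators and looping factors, all tested, 5 fell past both thresholds (25%, beside 8.54% of all tested genes) and 0 rose. LMO2, a bridging protein of the GATA1 and TAL1 complex, fell by 2.35 on the log2 scale (SE 0.144, edgeR adjusted p 1.78e-05). KLF1, the erythroid factor that binds CACCC boxes and drives the adult beta gene, held 6848 and 7058 counts with DMSO and 1563 and 1487 after dBET1 and fell by 2.19 (SE 0.105, edgeR adjusted p 9.55e-06). TCF3, a partner of TAL1, fell by 1.26. The signal transducer STAT5A had a log2 fold change of -1.20, and LDB1, which holds the locus control region and promoters together, one of -1.08. NFE2, the subunit that binds the enhancer with small MAF proteins, had a log2 fold change of -0.94 (edgeR adjusted p 4.44e-05), and the erythroid factor GATA1 one of -0.50 (edgeR adjusted p 0.00185). At an adjusted p alone 13 were lower (65%, beside 27.6% of all tested genes) and 1 was higher (beside 28.0%). The higher gene was BACH1 (log2 0.66), which is known to compete with NFE2 for small MAF proteins and to repress. The same counts were found at an unadjusted p under 0.05, and 0 were higher past both thresholds by DESeq2. The smallest changes were those of the cohesin subunit RAD21 (0.03) and the NF-Y subunit NFYB (-0.08). The median was -0.41, beside 0.05 over all tested genes and -0.41 in abundance group 10, where many of these factors lie. In that group 16.6% of genes were lower past both thresholds. With total counts as the only scaling 3 activators fell.

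Repressors of the gamma genes and their partners were 27 genes, of which 26 were tested. BCL11A, which silences the gamma genes in adult erythroid cells, had 0 counts in all 4 libraries, which allows up to 0.107 CPM. Past both thresholds 3 fell (11.5%, beside 8.54%) and 0 rose, with 3 higher at an unadjusted p under 0.05 and 0 higher by DESeq2. MYB, a progenitor factor that acts on gamma expression, held 7418 and 5699 counts with DMSO and 1754 and 1846 after dBET1 and fell by 1.85 (SE 0.0870, edgeR adjusted p 8.74e-06). NFIA and the arginine methyltransferase PRMT5 both fell by 1.29. ZBTB7A, the other main silencer of the gamma genes, had a log2 fold change of -0.47 (SE 0.0919, edgeR adjusted p 0.00350). At an adjusted p alone 16 were lower (61.5%, beside 27.6% of all tested genes). Higher were 3, POGZ (0.41), NR2C2 (0.29) and EIF2AK1 (0.21), beside 28.0% of all tested genes. The smallest values were those of NCOR1 (-0.02) and SPOP (0.02). The median of the list was -0.40, beside 0.05 over all tested genes and -0.41 in abundance group 10, where many of these genes lie. In that group 16.6% of genes were lower past both thresholds. The count of lower repressors was 5 without DMSO replicate 1.

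The oncofetal RNA-binding genes, several of which are known to favour gamma expression, were 5, all tested. LIN28A fell by 2.57 on the log2 scale (SE 0.0836, edgeR adjusted p 2.36e-06), from 201 ± 7.02 to 34.0 ± 1.48 CPM (SD, n = 2). LIN28B fell by 1.51 (SE 0.124, edgeR adjusted p 5.39e-05). IGF2BP1, IGF2BP2 and IGF2BP3 had log2 fold changes of -0.76, -0.74 and -0.43, with edgeR adjusted p of 0.000113, 0.000366 and 0.0232. All 5 were thus lower at an adjusted p alone, beside 27.6% of all tested genes, and 2 past both thresholds, beside 8.54%. Their median was -0.76, beside 0.05 over all tested genes. Most of them are in abundance groups 9 and 10, where the medians were -0.32 and -0.41. In these groups 11.9% and 16.6% of genes were lower past both thresholds.

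**Figure D5:**
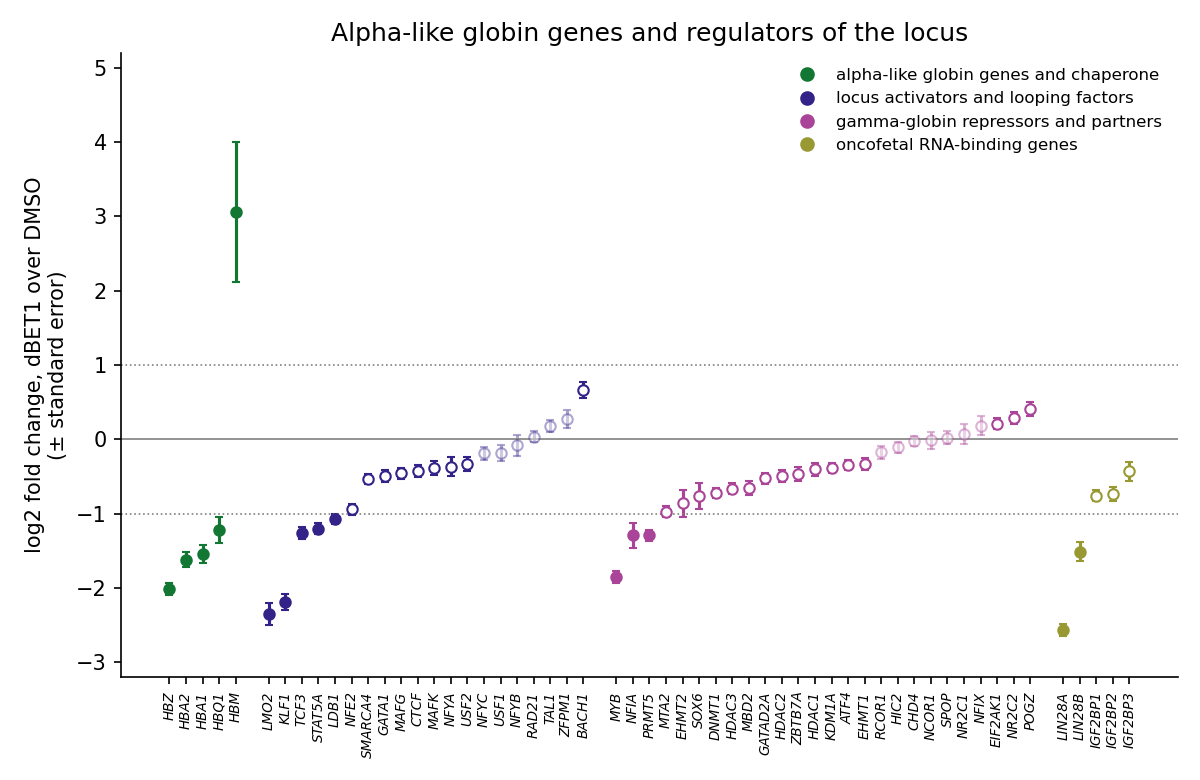
Log2 fold change, dBET1 over DMSO (± SE), of the tested alpha-like genes and of the activators, repressors and oncofetal genes, ordered by value within each list. Filled symbols are past both thresholds, open symbols are at an adjusted p under 0.05 alone, pale symbols are neither, and HBM, resting on 3 counts with DMSO, stands apart at 3.06.

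The pattern of HBG1 and HBG2 summed was compared over the 4 libraries with that of 605 genes of a mean log2 CPM of at least 8, as the root mean square difference of centred log2 CPM. The most alike were FAU at 0.0232, PABPN1 at 0.0391 and COX4I1 at 0.0412, and HBE1 came next at 0.0476. With 4 libraries, and 2 of them in each group, many genes that were lower with dBET1 follow a like pattern.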

How the data were processed

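The authors aligned paired-end reads to hg38 with HISAT2 2.2.0, estimated abundances with StringTie and deposited whole-number counts per Ensembl gene for 4 libraries, without normalization. The step from StringTie to counts and its strand setting are not given in the sources used here, so genes that overlap or resemble each other may share counts. Columns were mapped to samples by group, time and replicate number, with the columns named NC taken as the DMSO libraries, and 0 columns were unused. Positions and symbols came from GENCODE release 44 (56105 of 64252 identifiers found).

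The 8 genes and all lists were chosen with earlier results of these data known. Counts were analysed with edgeR 4.0.16 in R 4.3.3 (filterByExpr, TMM factors, quasi-likelihood test, group alone, Benjamini-Hochberg adjustment over 17971 genes), after the steps were tested on simulated data. Each SE was the size of the log2 difference over the square root of F. Alternatives included DESeq2 1.42.0, other scalings and filters, counts divided by 2, the replicate number as a block and each library left out. Depth was 28019956 to 34685645 counts per library; counting error is therefore small for the abundant genes and large below about 10 counts. Named were the 8 genes, list genes past both thresholds, the 2 largest and 2 smallest changes of each list, BCL11A, ZBTB7A, KLF1, MYB, GATA1, LIN28B and NFE2, called and nearest genes around the locus, the 3 other receptor genes with most counts and the 3 patterns most alike; others, such as BACH1, POGZ and the markers, were named after their values were seen. The marker lists also cover results that are not reported here.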

Additional observations from a re-analysis of the deposited data

How the results depend on the processing

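All 7 log2 differences of the tested locus genes stayed negative under every setting tried. The count of locus genes lower past both thresholds, 4, was 2 with total counts only and 2 to 4 as libraries were left out in turn. With the replicate number as a block it was 3, and no other count moved by over 1.5 times. The labels do not say whether same-numbered libraries are paired. Their correlation of deviations was -0.00753, which shows no shared deviation but cannot decide whether they were paired. Of the genes around the locus 6 were lower, against 2 with at least 10 counts in every sample, 3 with counts divided by 2 and 5 to 6 as libraries were left out; 1 was higher, against 0 with DESeq2, 0 with at least 10 counts, 4 in a 1000 kb window, 2 with no fold limit and 1 to 2 as libraries were left out. Other receptor genes were 1 lower and 1 higher with at least 10 counts. The higher alpha-like gene, HBM, gave 0 with DESeq2, with at least 10 counts, with counts divided by 2 and with no count filter, and 0 to 1 as libraries were left out. Activators were 3 lower with total counts only, and 13 lower and 1 higher with no fold limit. Repressors were 16 lower and 3 higher with no fold limit, and 4 to 5 lower as libraries were left out. The other 90 counts under other settings, and 50 with a library left out, were within 1.5 times the reported count; the gamma share and the alpha to beta ratio moved by less than the spread. The cause of these shifts was not tested. Genes with few counts, such as HBB, HBM, OR51I1, OR51K1P and TRIM6-TRIM34, are limited by depth.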
